A study of Mus musculus with 16 samples.

Results

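The protein-coding genes of the solute carrier families SLC1, SLC3, SLC6, SLC7, SLC36, SLC38 and SLC43, which move amino acids and related small molecules across membranes, were taken by symbol and biotype alone. The table of 54532 genes held 64 of them. One, Slc7a6os, carries its symbol because it lies next to Slc7a6 and encodes no carrier, so there were 63 carriers. RNA was sequenced from aortas, stripped of the adventitia, of male mice of strain C57BL/6j aged 8 to 12 weeks. All of the mice, controls included, lacked Apoe (Apoe-/-), which encodes apolipoprotein E. The library names nonetheless begin with WT, and what WT stands for was not settled here. One group received saline (0.9% sodium chloride) for 7 days from an osmotic pump, and the other angiotensin II (Ang II), the pressor hormone of the renin system, at 1000 ng per kg per min, with 8 libraries in each. The labels do not say which mouse each library came from, and the spread that p-values measure, from library to library, may be technical in part. The title of the series names SLC1A5, and the question here was where its gene stands among the other carriers, by level and by change with Ang II.

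Amino acid carriers fall into a few mechanisms. SLC1 and SLC38 proteins couple neutral amino acids or glutamate to sodium, SLC6 proteins couple amino acids, taurine, creatine or transmitters to sodium and chloride, and SLC36 proteins couple small amino acids to protons. SLC7 light chains work as exchangers once bound to a heavy chain, SLC3A2 (4F2hc) or SLC3A1 (rBAT), while the cationic members of SLC7 carry arginine and lysine on their own. In smooth muscle and other dividing or secreting cells, glutamine taken up by such carriers feeds the mitochondria and is also traded outward for leucine by the exchangers. Several carrier genes are known targets of ATF4, the transcription factor that rises when amino acids run short.

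The depth behind the values was 14606864 to 17590088 reads per library with saline and 15779125 to 19988730 with Ang II, and 1 read in a transcript of 1 kilobase was worth 0.05 to 0.0685 FPKM. FPKM is the deposited unit, fragments scaled for transcript length and library size. Saline 8, Saline 7 and Saline 2 had the lowest scores on principal component 1, which held 46.9% of the variance, and stood apart from the other saline libraries, so results that rest on them are given with and without them. The smooth muscle markers were present in every library, with a summed level of 8900 to 15200 FPKM with saline against 6310 to 10700 FPKM with Ang II, and 3 of 8 fell (Myh11, Smtn and Lmod1). The 14 adipocyte markers summed to 122 to 626 FPKM with saline against 71.8 to 268 FPKM with Ang II, and of 12 tested 3 fell (Plin4, Fabp4 and Cidea). The 10 macrophage and monocyte markers summed to 26.5 to 730 FPKM with saline against 74.6 to 740 FPKM with Ang II, and 2 rose (Csf1r and Adgre1). Endothelial markers gave 1 higher and 1 lower of 8, fibroblast markers 1 lower of 7, Schwann cell and neuron markers 1 lower of 3, and no marker of heart or skeletal muscle, lymphocytes or erythroid cells passed. Among all tested genes, 9.54% were called higher and 24.9% lower, and the marker counts were not tested against these shares. No marker of any of these lists was at 0 in all libraries. In bulk tissue, fewer cells of a type and less RNA per cell cannot be told apart.

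A gene was tested when its mean over the 16 libraries was at least 0.5 FPKM, and called at a limma adjusted p under 0.05 on log2(FPKM + 1), the scale of all fold changes given. Of the 64 members, 32 were tested. Of these 6 were called higher with Ang II (Slc43a2, Slc7a1, Slc7a8, Slc7a11, Slc1a2 and Slc36a4) and 5 lower (Slc38a3, Slc1a5, Slc6a7, Slc43a3 and Slc38a6). The 11 calls made 34.4% of the tested members, against 34.5% of the 15007 genes tested, so being called was as common as in the whole table. Among all tested genes 9.54% were called higher and 24.9% lower, and among the tested members 18.8% and 15.6%, a contrast that was not tested. The shares of all tested genes stand behind the counts by family given below as well, and no family was tested against them. Slc7a8, Slc7a11 and Slc1a2 had a saline mean under 0.5 FPKM and were tested only because of the Ang II libraries, so the count of rises gives no support by itself. The median log2 fold change was -0.05 over the tested members and -0.12 over all tested genes. In 2 members, Slc1a5 and Slc38a3, every Ang II library lay below every saline library, and in none did every Ang II library lie above. That is 6.25% of the tested members without overlap, against 8.36% of all tested genes (5.62% below and 2.74% above).

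**Figure D1:**
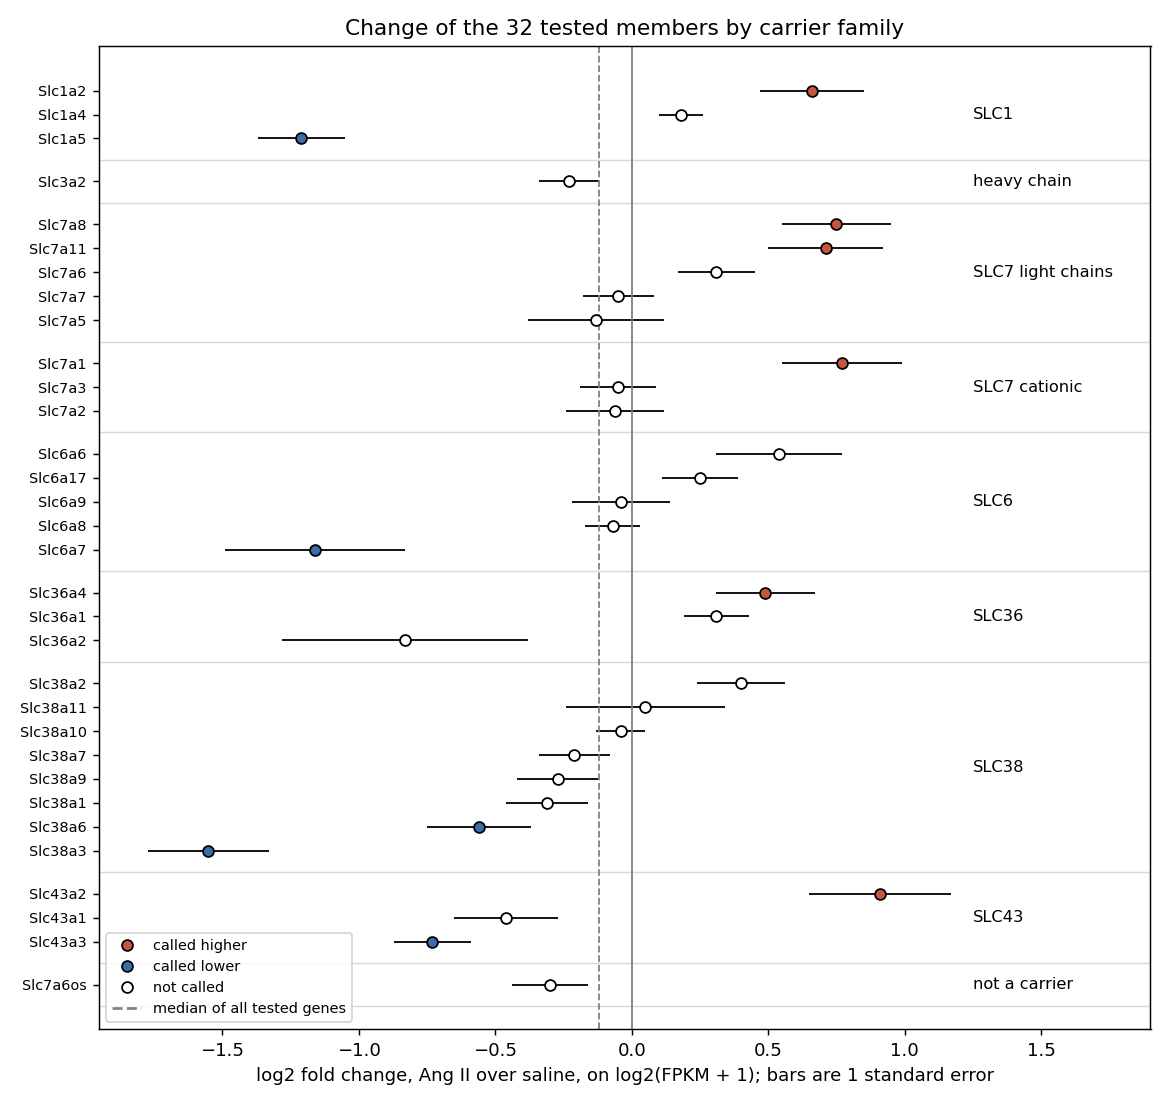
Log2 fold change (Ang II over saline, on log2(FPKM + 1)) of the 32 tested members, grouped by family, with bars of 1 standard error from limma (8 libraries per group). Filled points passed an adjusted p under 0.05, open points did not, and the dashed line is the median of all tested genes (-0.12). Slc38a3 (-1.55), Slc1a5 (-1.21) and Slc6a7 (-1.16) lie farthest to the left, and Slc43a2 (0.91) farthest to the right.

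How many members were higher or lower changed with the scaling of libraries. Median ratio scaling, which divides each library by its median ratio to the others and moved the median of all tested genes from -0.121 to -0.006, gave 12 members higher and 4 lower (37.5% and 12.5% of those tested, against 14.9% and 14.1% of all tested genes). The rises gained were Slc1a4, Slc6a6, Slc6a17, Slc7a6, Slc36a1 and Slc38a2, and the fall lost was Slc38a6. Quantile normalization gave 11 higher and 4 lower, against 15.1% and 15.8% of all tested genes. With no filter on level, all of the 64 members were tested except the 6 at 0 in all libraries, and not only the 32 above. Of these, 6 were higher and 4 lower, against 4.12% and 10.2% of the 31423 genes then tested. Slc6a12 was then called higher, and Slc36a4 and Slc38a6 were not called. Leaving out Saline 2, Saline 7 and Saline 8 gave 5 members higher (Slc7a6, Slc7a8, Slc7a11, Slc36a1 and Slc43a2). It gave 4 lower (Slc1a5, Slc38a1, Slc38a3 and Slc43a3). Of all genes tested in that fit, 1208 were higher and 3929 lower. The filter was applied again to the libraries left, and how many genes passed it is not given here. The member counts of that fit were therefore not set against a share of all genes. The calls of Slc1a5, Slc38a3 and Slc43a3 were made in all 29 alternative analyses.

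By level, 7 members stood above the rest. Averaged over all 16 libraries these were Slc6a6, Slc1a5, Slc38a10, Slc3a2, Slc6a8, Slc38a2 and Slc43a3, between 171 and 63.6 FPKM, and the next was Slc7a6 at 37.1 FPKM. FPKM are per length, but the length used decides this order in part. The recovered lengths were 1151 bases for Slc1a5, 1160 for Slc6a6 and 5388 for Slc38a2, against 4173, 8457 and 8838 annotated exon bases, and no other length was tried. In reads, Slc38a2 stood above both, with 44964 over the saline libraries against 25192 for Slc1a5 and 22714 for Slc6a6. The order below is therefore that of the deposited FPKM. With saline, Slc1a5 had the highest mean (169 ± 51.6 FPKM, SD, n = 8), followed by Slc6a6, the taurine carrier gene, at 146 ± 56.8 FPKM. The order of these 2 was not the same in every library. Slc1a5 exceeded Slc6a6 in 3 of 8 saline libraries, namely Saline 2, Saline 7 and Saline 8, and ranked second in the other 5. In those 5 libraries Slc6a6 held 157 to 221 FPKM and Slc1a5 122 to 165 FPKM. The first place of the Slc1a5 mean therefore rests on Saline 2, Saline 7 and Saline 8. Over all 8 saline libraries the median was 158 FPKM for Slc6a6 and 154 FPKM for Slc1a5. Slc1a5 exceeded every other member in all 8 saline libraries. Saline levels of Slc3a2, Slc43a3, Slc6a8 and Slc38a2 were close together (means of 81.7, 79.3, 76.9 and 63.0 FPKM), and each exceeded the next in only 4 of 8 libraries.

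With Ang II, Slc1a5 ranked between second and sixth. Slc6a6 exceeded it in all 8 libraries, Slc38a10 and Slc38a2 in 7 each, and Slc3a2 and Slc6a8 in 5 each, so that its mean of 71.3 ± 15.1 FPKM was the fifth in order. Its neighbours in that order, Slc6a8 (73.2 ± 9.88 FPKM) and Slc3a2 (70.0 ± 12.0 FPKM), did not differ from it beyond the spread between libraries. Slc43a3, the next below them, was under Slc1a5 in 7 of 8 libraries, the exception being Ang II 5. As a share of the summed FPKM of the 64 members, Slc1a5 made 17.2% ± 4.78 with saline and 7.97% ± 1.66 with Ang II, while Slc6a6 made 14.8% ± 5.47 and 21.9% ± 1.99. With saline, the share of Slc1a5 was the larger only in Saline 2, Saline 7 and Saline 8. The summed level was 981 ± 54.9 FPKM with saline against 896 ± 70.2 FPKM with Ang II, both n = 8.

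**Figure D2:**
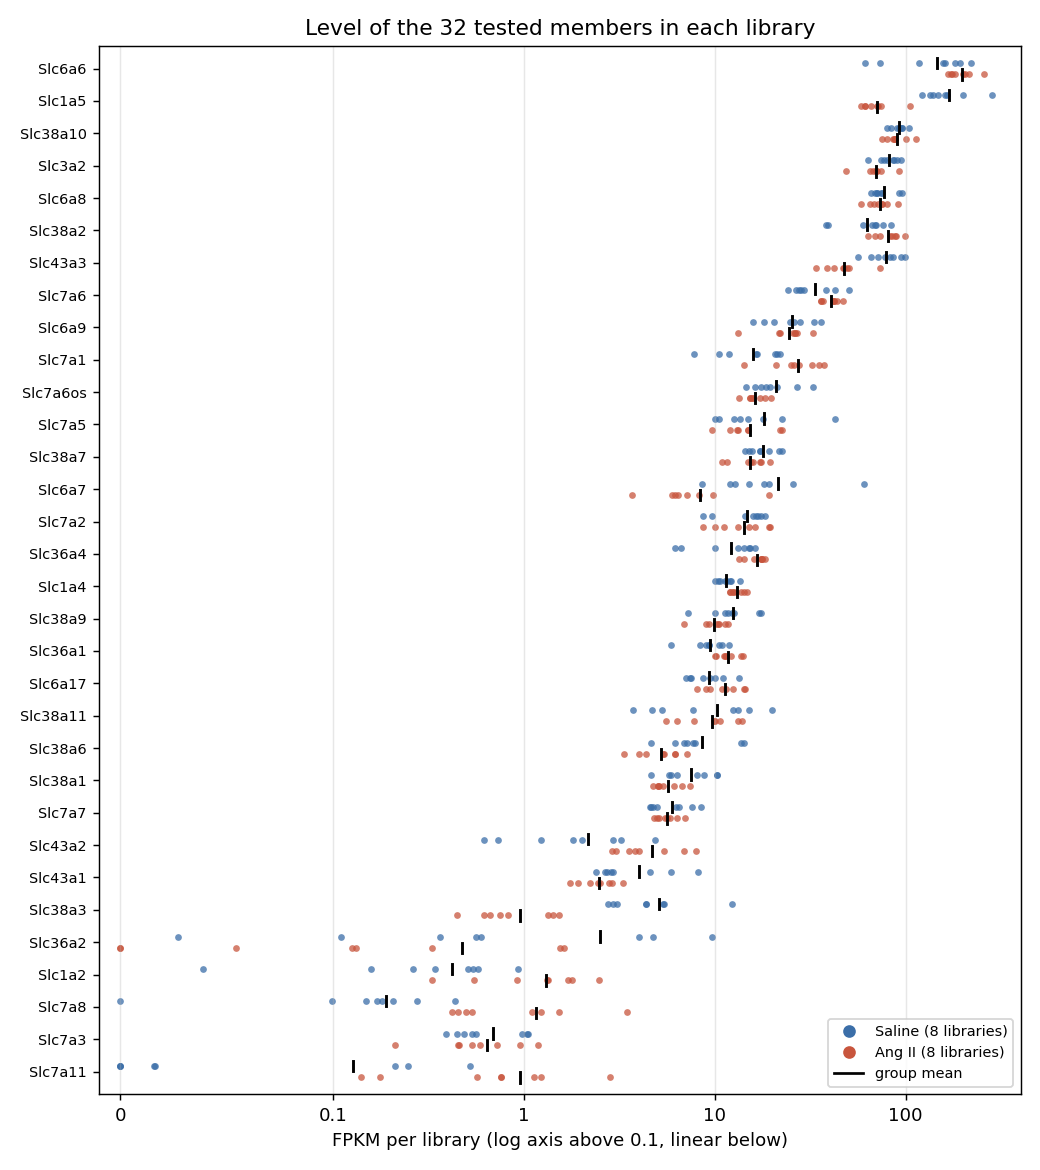
FPKM of the 32 tested members in each of the 8 saline and 8 Ang II libraries, ordered by the mean over all 16 (horizontal axis logarithmic above 0.1 and linear below; black ticks are group means). The points of Slc1a5 separate without overlap, from 122 to 282 FPKM with saline against from 58.7 to 106 FPKM with Ang II, while those of Slc38a10, Slc3a2 and Slc6a8 lie on top of each other.

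Slc1a5 (ENSMUSG00000001918) lies on the plus strand of chromosome 7 from 16781340 to 16798274 (GRCm38), and none of its exon bases overlap another gene model. It encodes ASCT2, an exchanger that brings glutamine in against other neutral amino acids. The saline libraries held 122 FPKM at the lowest, 154 at the median and 282 at the highest, and the Ang II libraries 58.7, 68.5 and 106 FPKM. The highest saline value was that of Saline 8 and the highest Ang II value that of Ang II 2, and the groups did not overlap. The fall was 2.31-fold (log2 fold change -1.21, SE 0.16, limma adjusted p = 2.92e-05). Among the tested members only Slc38a3 fell further on this scale. Among all tested genes 269 (1.79%) had a lower log2 fold change, and 819 (5.46%) a higher mean level. Its log2 fold change was -1.0 without Saline 2, Saline 7 and Saline 8, -0.94 adjusted for the adipocyte score and -1.16 adjusted for the macrophage and monocyte score, each score being the mean z-score of those markers in a library.

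Of the 7 SLC1 genes, 3 were tested, with 1 lower (Slc1a5), 1 higher and 1 not called. Slc1a4, which encodes ASCT1, the closest relative of ASCT2 and a carrier of serine, alanine and cysteine, held 11.5 ± 1.14 FPKM with saline, far below Slc1a5. With Ang II it held 13.1 ± 1.05 FPKM (8 libraries each). Every Ang II library lay above the saline median, and 3 lay above every saline library. The log2 fold change of 0.18 (SE 0.08) did not pass (limma adjusted p = 0.104). It passed after median ratio scaling (0.31, limma adjusted p = 0.0146) and without Saline 8 (0.21, limma adjusted p = 0.0435). Slc1a2, which encodes the glutamate carrier GLT-1, rose from a much lower level. Its saline libraries held 0.039, 0.429 and 0.93 FPKM (lowest, median, highest), and the Ang II libraries 0.333, 1.34 and 2.47 FPKM. In reads that was 98 over the 8 saline libraries and 322 over the 8 Ang II libraries. The log2 fold change of 0.66 (limma adjusted p = 0.0116) is compressed by the added 1 FPKM, and with a pseudocount of 0.1 it was 1.46. Without Saline 2, Saline 7 and Saline 8 it was 0.55 and missed the threshold (limma adjusted p = 0.0549), as it did adjusted for the adipocyte score (0.62, limma adjusted p = 0.0585). The other glutamate carrier genes Slc1a1, Slc1a3 and Slc1a6 were under 0.5 FPKM on average and not tested.

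**Figure D3:**
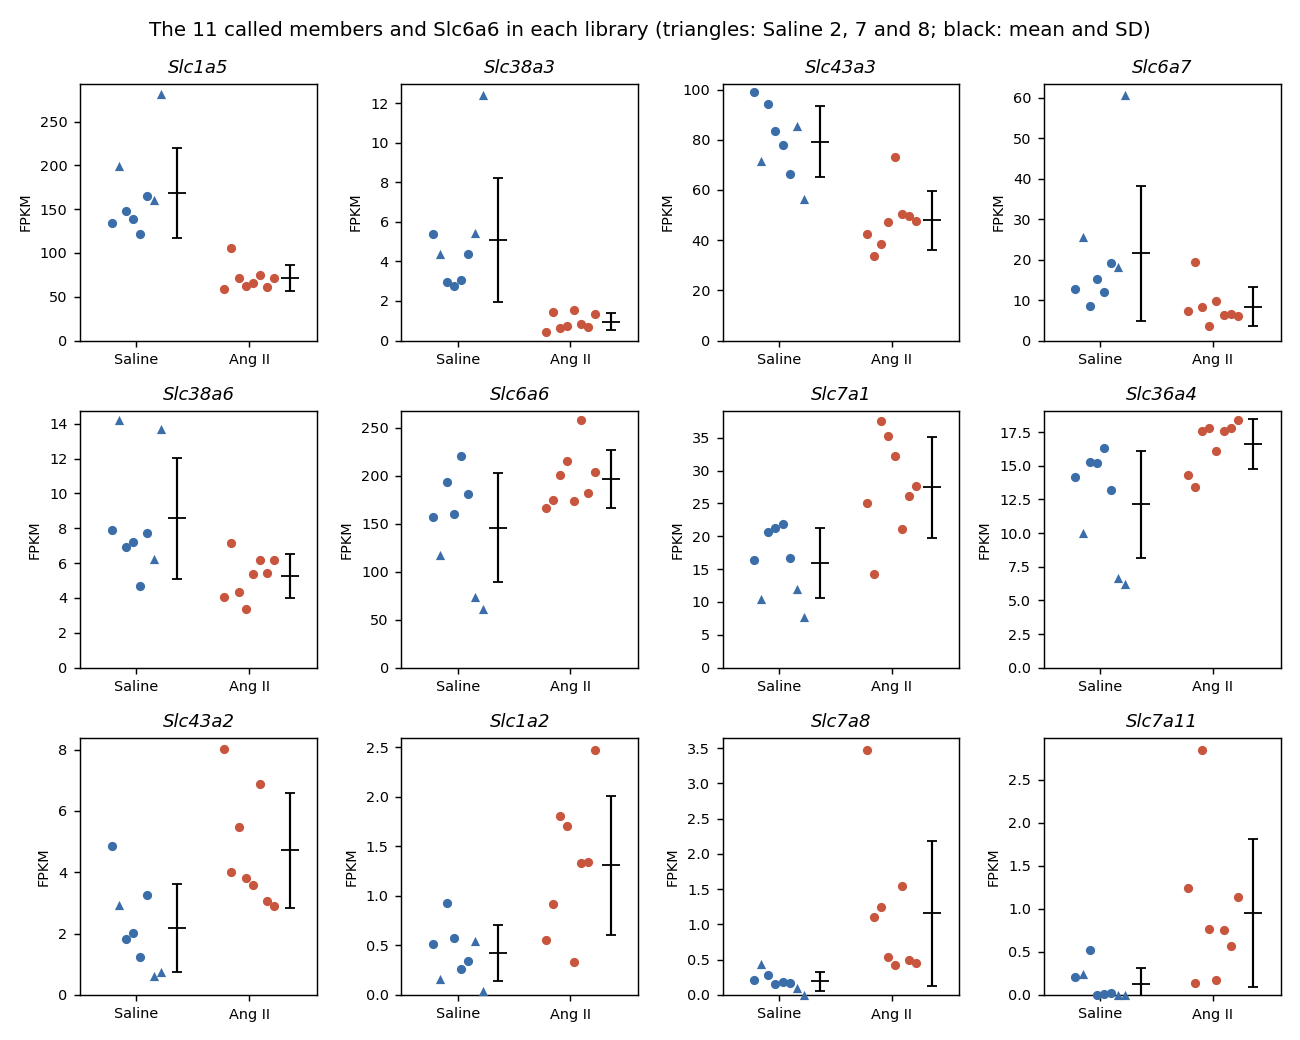
FPKM in each library (linear axes from 0) of the 11 called members and of Slc6a6, the highest carrier gene in FPKM over all libraries, which was not called. Points are libraries, triangles mark Saline 2, Saline 7 and Saline 8, and black bars are mean and SD over 8 libraries. The groups separate fully for Slc1a5 and Slc38a3. The triangles hold the 3 lowest saline values of Slc36a4, Slc6a6 and Slc7a1, and Saline 8 and Saline 2 the 2 highest of Slc1a5.

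Among the heteromeric exchangers, neither the shared heavy chain nor the 3 light chains of higher level were called. Slc3a2, the heavy chain gene, held 63.6, 83.1 and 94.8 FPKM (lowest, median, highest) with saline and 48.8, 70.1 and 92.6 FPKM with Ang II, overlapping groups and no call (log2 fold change -0.23, limma adjusted p = 0.128). Of the light chains, 5 of 10 genes were tested, with none lower and 2 higher, both of them tested only because of the Ang II libraries. Slc7a5, whose protein LAT1 imports leucine in exchange for glutamine, held 18.1 ± 10.8 FPKM with saline against 15.3 ± 4.64 FPKM with Ang II and was not called (limma adjusted p = 0.708). Saline 7 alone held 42.7 FPKM of Slc7a5, and the next highest library 22.6 FPKM. Slc7a6, which encodes y+LAT2, an exchanger of arginine for glutamine, was the highest light chain gene in FPKM. It held 33.4 ± 9.29 FPKM with saline against 40.7 ± 4.00 FPKM with Ang II (log2 fold change 0.31, limma adjusted p = 0.0859). All 8 Ang II libraries of Slc7a6 lay above the saline median, and none lay above Saline 2. Slc7a6 passed without Saline 2 (0.40, limma adjusted p = 0.0189) and without Saline 8 (0.37, limma adjusted p = 0.0403). Slc7a7, its close relative y+LAT1, held 5.99 ± 1.49 and 5.65 ± 0.740 FPKM and was not called.

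The 2 light chain genes that rose were scarce. Slc7a11 encodes xCT, which imports cystine for glutathione synthesis and exports glutamate. In the saline libraries it held 0, 0.0161 and 0.525 FPKM (lowest, median, highest), with 61 reads in all, and its Ang II libraries 0.141, 0.761 and 2.84 FPKM, with 486 reads. Ang II 3 held the highest value, and 6 of 8 Ang II libraries exceeded all saline ones. The log2 fold change was 0.71 (SE 0.21, limma adjusted p = 0.014), and 2.18 with a pseudocount of 0.1. Slc7a8 encodes LAT2, an exchanger of neutral amino acids including glutamine. With saline, its libraries held 0, 0.176 and 0.439 FPKM, with 78 reads in all, and its Ang II libraries 0.423, 0.816 and 3.47 FPKM, with 493 reads. Its log2 fold change was 0.75 (SE 0.20, limma adjusted p = 0.00864), and 1.93 with a pseudocount of 0.1. Ang II 1, the highest library for Slc7a8, also held the highest summed level of macrophage markers, 740 FPKM. Saline 1, with 730 FPKM of them, held 0.208 FPKM of Slc7a8. Ang II 1 also had the highest mean z-score of all libraries for fibroblast markers (1.14) and for Schwann cell and neuron markers (1.021). Adjusted for the macrophage and monocyte score, neither Slc7a11 (0.51, limma adjusted p = 0.12) nor Slc7a8 (0.39, limma adjusted p = 0.11) passed. With that score, the genes called higher in the whole table went from 1431 to 843. The part of macrophages in these values was not tested.

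The promoters of the members were searched on both strands for TGATGNAAN, the C/EBP-ATF element that ATF4 binds. RefSeq windows (GRCm38.p6) from 250 bases before to 50 after a start were matched by symbol for 46 members, 21 of them tested and 7 called, and Slc1a5 was not among them. The element was in 5 of their 67 windows (7.46%), against 3.95% of all 32851 windows. These 5 windows came from 4 members, since overlapping windows of Slc7a7 share a copy of the element, which is counted in each. Slc7a11 was the only called member with it and held 2 copies, on opposite strands, at -66 to -58 and -48 to -40 from the start. Slc1a4 held it once, on the strand opposite the gene, at -5 to 4, and 1 window of Slc7a7 held it at -141 to -133 and at -1 to 8. An overlapping window of Slc7a7 held the copy at -1 to 8 again, at -243 to -235 from its own start. Slc6a21, which was not tested, was the other. These 3 stretches are shown, 5′ to 3′ in the direction of the gene with the element in capitals, because they place the element of the called gene beside those of 2 tested members that were not called. Slc7a11 is the stretch chr3:50443614-50443863, Slc1a4 is chr11:20332710-20332959 and Slc7a7 is chr14:54417937-54418186, all on the minus strand.
Slc7a11: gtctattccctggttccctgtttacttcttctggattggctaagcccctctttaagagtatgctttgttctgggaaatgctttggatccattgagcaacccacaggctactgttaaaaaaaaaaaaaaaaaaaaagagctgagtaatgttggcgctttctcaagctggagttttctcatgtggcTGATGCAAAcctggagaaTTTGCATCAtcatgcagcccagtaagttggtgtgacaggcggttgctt
Slc1a4: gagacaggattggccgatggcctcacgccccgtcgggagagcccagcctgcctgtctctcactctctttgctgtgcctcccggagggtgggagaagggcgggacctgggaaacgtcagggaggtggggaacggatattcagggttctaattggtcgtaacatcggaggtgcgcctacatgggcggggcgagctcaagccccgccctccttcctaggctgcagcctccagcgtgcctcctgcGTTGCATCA
Slc7a7: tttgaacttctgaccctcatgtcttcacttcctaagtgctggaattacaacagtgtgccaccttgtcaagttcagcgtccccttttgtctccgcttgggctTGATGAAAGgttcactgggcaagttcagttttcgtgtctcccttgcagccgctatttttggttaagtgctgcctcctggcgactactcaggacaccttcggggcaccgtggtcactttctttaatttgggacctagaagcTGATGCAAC
A match of these letters is a description of the sequence and does not show binding.

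Of the cationic carriers of SLC7, 3 of 5 were tested and 1 rose. Slc7a1 encodes CAT1, the general arginine and lysine carrier that also supplies arginine for nitric oxide synthesis. Its saline libraries held 7.79, 16.6 and 21.9 FPKM (lowest, median, highest), and its Ang II libraries 14.3, 27.0 and 37.6 FPKM. Saline 8, Saline 2 and Saline 7 were the lowest, in that order, and 6 of 8 Ang II libraries exceeded all saline ones. The rise was 1.71-fold (log2 fold change 0.77, SE 0.22, limma adjusted p = 0.0116). It was 0.44 without Saline 2, Saline 7 and Saline 8 (limma adjusted p = 0.0787) and 0.42 adjusted for the adipocyte score (limma adjusted p = 0.14), and was not called in either. Slc7a2, the arginine carrier CAT2, held 14.7 ± 3.59 FPKM with saline against 14.2 ± 4.09 FPKM with Ang II (limma adjusted p = 0.833), so the level of Slc7a1 was close to that of Slc7a2 with saline and above it in the mean with Ang II. Slc7a3 held 0.688 ± 0.285 and 0.640 ± 0.310 FPKM and was not called.

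None of the 7 SLC6 carriers of transmitter amines and GABA reached 0.5 FPKM. Among the 13 listed SLC6 carriers of taurine, creatine, glycine, proline and neutral amino acids, 5 were tested and 1 fell. Slc6a6, which encodes the taurine carrier, held 61.4, 158 and 221 FPKM (lowest, median, highest) with saline and 166, 191 and 258 FPKM with Ang II. All 8 Ang II libraries lay above the saline median, but only 1 lay above every saline library. Its log2 fold change of 0.54 did not pass (SE 0.23, limma adjusted p = 0.0766). It passed after median ratio scaling (0.68, limma adjusted p = 0.0221) and without Saline 5 (0.64, limma adjusted p = 0.0336). The lowest libraries were Saline 8 (61.4 FPKM) and Saline 7 (73.8 FPKM), and without both of them the log2 fold change was 0.21 (limma adjusted p = 0.238).

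Slc6a17, a carrier of neutral amino acids known from neurons, held 9.33 ± 2.14 and 11.3 ± 2.33 FPKM (limma adjusted p = 0.181, and 0.0408 after median ratio scaling). Slc6a8, the creatine carrier gene, held 76.9 ± 11 FPKM with saline against 73.2 ± 9.88 FPKM with Ang II (limma adjusted p = 0.626). Slc6a9, the glycine carrier GlyT1, held 25.3 ± 7.05 and 24.4 ± 5.66 FPKM (limma adjusted p = 0.876). Models on the other strand, mainly Ccdc24, cover 30.2% of its exon bases, and the strand setting of the counting is not known here, so the level of Slc6a9 is uncertain. Slc6a7, the proline carrier PROT best known from brain, fell 2.23-fold. In the saline libraries it held 8.62, 16.6 and 60.6 FPKM (lowest, median, highest), and its Ang II libraries 3.68, 6.82 and 19.3 FPKM. The highest libraries of Slc6a7 were Saline 8 and Ang II 2, and 7 of 8 Ang II libraries lay below the saline median. The log2 fold change was -1.16 (SE 0.33, limma adjusted p = 0.0118). It was -0.72 without Saline 2, Saline 7 and Saline 8 (limma adjusted p = 0.0534) and -0.69 adjusted for the adipocyte score (limma adjusted p = 0.137). Adjusted for the macrophage and monocyte score it was -1.06 (limma adjusted p = 0.0636), and none of these passed. Saline 8 held the highest summed level of adipocyte markers, 626 FPKM. The deposited coordinates of Slc6a7 differ from those of GENCODE M21, and its reads did not come out whole. Its read counts and exon overlap are therefore uncertain.

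The SLC36 carriers sit on the plasma membrane and on lysosomes. Of the 4 genes, 3 were tested and 1 rose. Slc36a4, a carrier of proline and tryptophan, held 6.22, 13.7 and 16.3 FPKM (lowest, median, highest) with saline and 13.4, 17.6 and 18.4 FPKM with Ang II, a 1.4-fold rise (log2 fold change 0.49, SE 0.18, limma adjusted p = 0.0432). The 3 lowest values were those of Saline 8, Saline 7 and Saline 2, and without them the log2 fold change was 0.15 (limma adjusted p = 0.214). The call was also lost without any 1 of Saline 2, Saline 7, Saline 8 and Ang II 3 to Ang II 8 (limma adjusted p up to 0.0824), and it was made in 14 of 29 alternatives. Slc36a1, the lysosomal carrier PAT1, held 9.41 ± 1.81 FPKM with saline against 11.8 ± 1.46 FPKM with Ang II, just short of the threshold (log2 fold change 0.31, limma adjusted p = 0.054). It passed without Saline 2 (0.36, limma adjusted p = 0.0332), without Saline 8 (0.34, limma adjusted p = 0.0366) and without Saline 2, Saline 7 and Saline 8 (0.30, limma adjusted p = 0.0198).

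Slc36a2, which encodes PAT2, a carrier of glycine and proline known as a surface marker of brown adipocytes, varied widely between libraries. The highest libraries were Saline 8 (9.75 FPKM), Saline 2 (4.76 FPKM) and Saline 6 (4.03 FPKM). These were also the 3 libraries with the highest summed adipocyte markers, 626, 443 and 463 FPKM. The median was 0.581 FPKM with saline against 0.129 FPKM with Ang II, and Ang II 2 (1.63 FPKM) and Ang II 8 (1.55 FPKM) were the highest of that group. The Ang II mean of Slc36a2 was 0.479 FPKM, under 0.5 FPKM, so it was tested only because of the saline libraries. Its log2 fold change of -0.83 did not pass (limma adjusted p = 0.161), and adjusted for the adipocyte score it was 0.17 (limma adjusted p = 0.636). Fitted with a term for each replicate number, Slc36a2 was called lower (-0.83, limma adjusted p = 0.0364). With the adipocyte score, the genes called lower in the whole table went from 3741 to 2007. The part of adipocytes in these values was not tested.

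Of the 11 SLC38 genes, 8 were tested, with 2 lower and none higher (median log2 fold change -0.24). Among all tested genes 24.9% were lower and 9.54% higher, with a median of -0.12. Slc38a3 (ENSMUSG00000010064, chromosome 9 from 107650634 to 107669530) encodes SNAT3, a glutamine carrier of liver, kidney and astrocytes that can run in both directions. With saline, its libraries held 2.78, 4.38 and 12.4 FPKM (lowest, median, highest), and its Ang II libraries 0.446, 0.791 and 1.53 FPKM. Every Ang II library lay below every saline library. The fall was 2.92-fold, the largest among the tested members (log2 fold change -1.55, SE 0.22, limma adjusted p = 7.14e-05), and on 190 reads in the Ang II libraries against 930 in the saline libraries. With a pseudocount of 0.1 it was -2.24. It was -1.24 adjusted for the adipocyte score (limma adjusted p = 0.000832).

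Slc38a6, whose protein SNAT6 is little described, held 4.66, 7.47 and 14.2 FPKM (lowest, median, highest) with saline and 3.36, 5.41 and 7.15 FPKM with Ang II. All 8 Ang II libraries lay below the saline median, and Saline 2 and Saline 8 were far above the rest. Its log2 fold change was -0.56 (SE 0.19, limma adjusted p = 0.0326). The call was lost after median ratio scaling (-0.44, limma adjusted p = 0.0951), without any 1 of Saline 2, Saline 8, Ang II 1, Ang II 3 and Ang II 4 (limma adjusted p up to 0.0686), and without Saline 2, Saline 7 and Saline 8 (-0.34, limma adjusted p = 0.106). It was also lost when adjusted for the adipocyte score (-0.25, limma adjusted p = 0.344) or the macrophage and monocyte score (-0.58, limma adjusted p = 0.0893). Slc38a2, which encodes SNAT2, the system A carrier that amino acid shortage induces, held 38.4, 67.9 and 84.3 FPKM with saline against 63.7, 84.0 and 98.8 FPKM with Ang II. Its log2 fold change of 0.40 did not pass (limma adjusted p = 0.0595), and passed without Saline 1 (0.46, limma adjusted p = 0.0313), without Saline 2 (0.44, limma adjusted p = 0.0483) or without Ang II 4 (0.45, limma adjusted p = 0.0484). Without Saline 7 and Saline 8, its 2 lowest libraries, it was 0.19 (limma adjusted p = 0.178).

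Slc38a1, which encodes the glutamine carrier SNAT1, held 7.51 ± 2.16 FPKM with saline against 5.72 ± 0.974 FPKM with Ang II. It was not called (-0.31, limma adjusted p = 0.116) but was lower without Saline 8 (-0.39, limma adjusted p = 0.0359) and without Saline 2, Saline 7 and Saline 8 (-0.53, limma adjusted p = 0.00532). Slc38a11, whose substrates are little described, held 10.3 ± 5.84 and 9.72 ± 3.03 FPKM (limma adjusted p = 0.901). The lysosomal members were not called. Slc38a7, a lysosomal glutamine exporter, held 17.9 ± 3.01 and 15.4 ± 2.94 FPKM (limma adjusted p = 0.206). Slc38a9, an arginine sensor of the lysosome that signals to mTORC1, held 12.5 ± 3.39 and 9.97 ± 1.54 FPKM (limma adjusted p = 0.169, and 0.04 without Saline 5). Slc38a10, the highest of the family in FPKM, held 91.9 ± 7.43 and 89.9 ± 11.8 FPKM (limma adjusted p = 0.767).

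All 3 SLC43 genes were tested, and they went different ways. Slc43a3 held 56.5, 80.6 and 99.1 FPKM (lowest, median, highest) with saline and 33.8, 47.4 and 73.2 FPKM with Ang II. Its protein is known as a carrier of purine nucleobases rather than of amino acids. All 8 Ang II libraries lay below the saline median, and only Ang II 5 reached into the saline range. The fall was 1.66-fold (log2 fold change -0.73, SE 0.14, limma adjusted p = 0.00108), and -0.90 adjusted for the adipocyte score. Slc43a2, which encodes LAT4, a carrier that lets branched-chain amino acids and phenylalanine out of cells, rose 1.87-fold. Its saline libraries held 0.622, 1.93 and 4.85 FPKM, and its Ang II libraries 2.89, 3.91 and 8.01 FPKM. Its log2 fold change was 0.91 (SE 0.26, limma adjusted p = 0.0122). The highest library of each group, Saline 1 and Ang II 1, was also the highest of its group in summed macrophage markers (730 and 740 FPKM). Ang II 1, but not Saline 1, also led its group in mean z-score of fibroblast markers and of Schwann cell and neuron markers. Adjusted for the macrophage and monocyte score, the log2 fold change was 0.33 (limma adjusted p = 0.125). A model on the other strand, Gm45606, covers 9.18% of its exon bases, so its level carries some uncertainty. Slc43a1, the related LAT3, held 4.04 ± 2.07 and 2.49 ± 0.518 FPKM (-0.46, limma adjusted p = 0.0758) and passed without Saline 3 (-0.52, limma adjusted p = 0.0472).

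**Figure D4:**
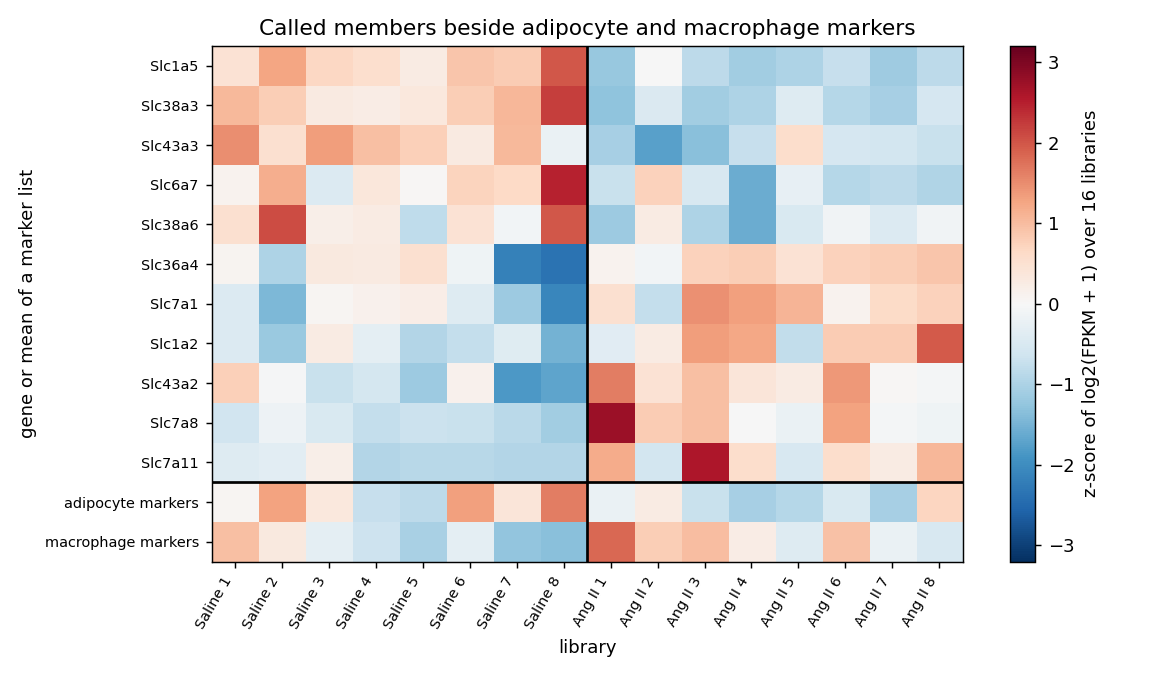
z-scores of log2(FPKM + 1) over the 16 libraries for the 11 called members, with the mean z-score of the adipocyte markers and of the macrophage and monocyte markers in the lower 2 lines. Saline 8 is at the high end for Slc1a5, Slc38a3, Slc6a7 and the adipocyte markers and at the low end for Slc36a4, Slc7a1 and Slc43a2. Ang II 1 is highest for Slc43a2, Slc7a8 and the macrophage markers.

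Read by what they carry, the members known to move glutamine did not fall together. Of 13 such genes 9 were tested, with 2 lower (Slc1a5 and Slc38a3), 1 higher (Slc7a8) and 6 not called (median log2 fold change -0.13, against -0.12 over all tested genes). The 2 that fell were unequal in level, since Slc38a3 held 5.09 FPKM with saline and Slc1a5 169 FPKM. The carriers known as ATF4 targets were all tested. Of these 9, Slc7a1 and Slc7a11 were higher, Slc1a5 was lower and 6 were not called (median -0.04). For both lists, the shares among all tested genes were 9.54% higher and 24.9% lower. Slc7a8 and Slc7a11 were tested only because of the Ang II libraries. After median ratio scaling Slc1a4 and Slc38a2 were higher as well among the ATF4 targets, in a fit that called 14.9% of all tested genes higher. Of the glutamine carriers 3 were then higher (Slc7a6, Slc7a8 and Slc38a2) and 2 lower, against 14.9% and 14.1% of all tested genes. Without Saline 2, Saline 7 and Saline 8, Slc38a1 was lower as well among the glutamine carriers, and Slc7a6 and Slc7a8 were higher.

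Among amino acid response genes that are not carriers, of 25 tested 8 were higher and 2 lower (median -0.10), against 9.54% and 24.9% of all tested genes. The rises included enzymes of serine and proline synthesis. Pycr1, which makes proline, rose from 9.57 ± 2.89 to 22.8 ± 3.11 FPKM (limma adjusted p = 1.67e-05), and Aldh18a1, the enzyme before it, from 16.2 ± 3.80 to 30.8 ± 2.21 FPKM (limma adjusted p = 3.9e-05). In both the groups did not overlap, as also for Asns (log2 fold change 1.72) and Psat1 (2.26), and 2.74% of all tested genes lay above in this way. Stc2 fell from 7.08 ± 3.46 to 2.67 ± 0.932 FPKM (limma adjusted p = 0.00219) and Ddit3 with a log2 fold change of -0.95. Atf4 itself held 116 FPKM with saline against 103 FPKM with Ang II and was not called (limma adjusted p = 0.715).

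Of 31 tested genes that pass amino acid supply on to mTORC1, 10 were lower and 1 higher (median -0.21), against 24.9% lower and 9.54% higher among all tested genes. After median ratio scaling 5 were lower and 3 higher, against 14.1% and 14.9% of all tested genes. Tsc2, an inhibitor of mTORC1, fell from 55.3 ± 18.4 to 31.8 ± 3.82 FPKM (limma adjusted p = 0.00163), and Rptor, the subunit that recruits its substrates, from 21.8 ± 2.35 to 16.6 ± 1.83 FPKM (limma adjusted p = 0.00532). In both the groups did not overlap, as in 5.62% of all tested genes that lay below. Nprl3 and Sesn1, which restrain mTORC1 when amino acids are low, had log2 fold changes of -0.62 and -0.54. Sec13, which also serves in vesicle coats, was the one that rose (0.33, limma adjusted p = 0.0121).

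Of the 11 tested amino acid carriers outside these families, 2 were higher and 3 lower, against 9.54% and 24.9% of all tested genes. Slc16a10, an aromatic amino acid carrier, rose from 3.77 ± 1.31 to 6.49 ± 1.38 FPKM (limma adjusted p = 0.00736). The other was Slc25a13, a mitochondrial aspartate and glutamate carrier named after its values were seen, with 0.299 ± 0.304 and 0.963 ± 0.293 FPKM. Its saline mean was under 0.5 FPKM, so it was tested only because of the Ang II libraries. The mitochondrial carriers that fell were Slc25a29, for basic amino acids, from 17.1 ± 7.16 to 7.22 ± 3.07 FPKM (limma adjusted p = 0.00061), Slc25a38, for glycine, with a log2 fold change of -0.88, and Slc25a12, the close relative of Slc25a13, with -0.28.

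The other 32 members had a mean under 0.5 FPKM and were not tested. Of these 6 were listed at 0 in all 16 libraries (Slc6a11, Slc6a14, Slc6a18, Slc7a9, Slc7a12 and Slc7a14), and the other 26 had means of 0.488 FPKM (Slc1a3) or less. Slc7a6os, the member that is no carrier, was tested and held 20.9 ± 6.07 FPKM with saline against 16.4 ± 1.98 FPKM with Ang II (limma adjusted p = 0.111).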

How the data were processed

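Values were FPKM as the authors deposited them, in a single table with a column for each library, per the file headers. Per the submitters' processing notes, reads were placed on GRCm38 (mm10). Aligner, counter and strand use: not given in the sources used here. Libraries were made from Trizol-extracted RNA with a SMARTER mRNA-seq kit, per the labels' protocols. Groups and replicate numbers came from sample titles.

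Genes with a mean of at least 0.5 FPKM were tested with limma 3.58.1 in R 4.3.3 (intensity trend, log2(FPKM + 1), no covariate, two-sided, Benjamini-Hochberg over 15007 genes, threshold 0.05). Fold changes on this scale understate those of low genes. Errors beside FPKM are SD over 8 libraries. Depth was recovered from the step that 1 read makes, with GENCODE M21 mean transcript lengths (95.8% to 96.3% of values above 0 whole within 0.02), so precision is limited most for members of few reads. Reads of Slc6a7, Slc1a1 and Slc3a1 did not come out whole. Exon overlap was measured with bedtools 2.31.1. No pair of libraries within a group agreed within sampling noise (lowest chi-square per degree of freedom 21.4 over 56 pairs).

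The members, lists and markers were chosen with earlier results of these data known. Named were Slc1a5, all called members, the 10 most abundant ones and the neighbours of Slc1a5; of other lists up to 4 genes in each direction, by adjusted p, with a mean of at least 1 FPKM. Alternatives were median ratio scaling, quantile normalization, no filter or one at 1 FPKM, a pseudocount of 0.1, sample weights, a replicate block, adipocyte or macrophage marker scores as covariates, leaving out libraries and a Wilcoxon test. Leaving out Saline 2, Saline 7 and Saline 8 together and limma voom on recovered reads were chosen after seeing the data. The fit was tested on simulated data.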

Additional observations from a re-analysis of the deposited data

Results flagged for a closer look

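In each group of 8 libraries, the gap from the highest or lowest library to its nearest neighbour was divided by the range. Of 64 such groups (32 tested members in both conditions), 9 had a library whose gap passed Dixon's critical value, and chance passes about 1 in 20. That rate holds for independent, normally distributed values. The gaps were taken on FPKM without logs, and the groups share the same libraries, so 9 of 64 cannot be set against it directly. With saline, Saline 8 was apart at 60.6 FPKM for Slc6a7 (next 25.6) and at 12.4 FPKM for Slc38a3 (next 5.43), Saline 7 at 42.7 FPKM for Slc7a5 (next 22.5) and Saline 3 at 0.525 FPKM for Slc7a11 (next 0.248). With Ang II, Ang II 2 was apart at 106 FPKM for Slc1a5 (next 74.3) and at 19.3 FPKM for Slc6a7 (next 9.83). Ang II 5 was apart at 73.2 FPKM for Slc43a3 (next 50.5), Ang II 1 at 3.47 FPKM for Slc7a8 (next 1.54) and Ang II 3 at 2.84 FPKM for Slc7a11 (next 1.24). All 9 were the highest of their group.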

How the results depend on the processing

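Slc1a5 was called lower in all 29 alternatives, from -1.29 to -0.94, and from -1.29 to -1.09 when 1 library was left out. Without 1 library, 4 to 8 members were higher and 4 to 6 lower, and 1170 to 1533 genes higher and 3239 to 3896 lower in the whole table. The filter was applied again in each of these fits, so the counts are not given as shares. Of all genes, 2235 were higher and 2113 lower after median ratio scaling, 2270 and 2374 after quantile normalization, 814 and 2007 adjusted for the adipocyte score, and 843 and 2301 with the macrophage and monocyte score. Of the members, 12 were higher after median ratio scaling and 11 after quantile normalization, 3 were lower with the adipocyte score, and 2 were higher and 3 lower with the macrophage and monocyte score. With the replicate block 5 members were higher and 6 lower, Slc36a4 losing its call (adjusted p = 0.0605) and Slc36a2 gaining one (0.0364). The labels do not say whether replicate numbers pair the libraries, and not every pair was correlated: 5 of 8 same-numbered pairs had correlated deviations over 0.1 (-0.246 to 0.385), and 2 of 8 saline libraries correlated best with their own number.

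Signs turned only in members that were called in neither analysis. After median ratio scaling these were Slc38a10 (0.10), Slc6a8 (0.07), Slc6a9 (0.10), Slc7a2 (0.08), Slc7a3 (0.00), Slc7a5 (0.00) and Slc7a7 (0.07), and after quantile normalization Slc38a10 (0.18), Slc6a8 (0.14), Slc6a9 (0.09), Slc7a2 (0.06), Slc7a5 (0.02) and Slc7a7 (0.04). With the adipocyte score they were Slc36a2 (0.17), Slc38a11 (-0.25) and Slc7a3 (0.11), with the macrophage and monocyte score Slc38a10 (0.03), Slc6a9 (0.04), Slc7a3 (0.00) and Slc7a5 (0.19), and with sample weights Slc38a11 (-0.30), Slc6a8 (0.01), Slc7a3 (0.03) and Slc7a5 (0.20). Without Saline 7 and Saline 8 they were Slc38a11 (-0.19), Slc7a3 (0.05) and Slc7a5 (0.17), and without Saline 2 as well -0.45, 0.12 and 0.16. Without 1 library the values ran from -0.10 to 0.21 for Slc38a11, -0.13 to 0.07 for Slc6a9, -0.15 to 0.03 for Slc7a2, -0.11 to 0.01 for Slc7a3, -0.22 to 0.06 for Slc7a5 and -0.09 to 0.02 for Slc7a7. Apart from the scalings and the left-out libraries, whose construction is given, the cause was not tested. Slc7a11 fell under the filter in 3 of the 16 analyses without 1 library and Slc7a8 in 1, and with a filter at 1 FPKM it, Slc7a8, Slc1a2 and Slc7a3 were not tested.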

Other observations

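Slc6a12, which encodes the betaine and GABA carrier BGT1, was listed at 0 in all 8 saline libraries, and the Ang II libraries held 14 reads in all, at most 4 in one, with 2 of 8 at 0. It was under the filter, and with no filter it was called higher (log2 fold change 0.12, limma adjusted p = 0.0239). Slc1a3, a glutamate carrier gene, held 163 reads over the saline libraries and 59 over the Ang II libraries, and Slc1a6 79 and 37. Slc7a10, a carrier gene known from white adipocytes, held 32 and 29 reads. These 3 were not tested.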
